A study of Homo sapiens with 12 samples.

Results

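Transcripts of 10 genes of the death receptor branch of apoptosis were followed in SCC15 and SCC25 cells after squamocin. The genes were chosen by name and all 10 were listed in the table of each cell line, among 29657 genes in SCC15 and 31055 in SCC25. They were the TRAIL receptors TNFRSF10A (DR4), TNFRSF10B (DR5) and TNFRSF10D (DcR2), FAS, the adaptor FADD, CASP8, its inhibitor CFLAR (c-FLIP), and the inhibitors of apoptosis (IAPs) BIRC2 (cIAP1), BIRC3 (cIAP2) and XIAP. SCC15 and SCC25 are HNSCC cell lines of oral squamous origin, labelled WT. The cells received squamocin (10 µg per mL) or DMSO for 24 h, and RNA of each line and treatment was sequenced in 3 libraries, 12 altogether. The labels name the treatment ACGs, and the compound and its dose come from the methods of the study. Squamocin is an annonaceous acetogenin, a class of natural compounds known to inhibit mitochondrial Complex I. No label says whether the libraries came from separate cultures, so the p-values measure the spread between these libraries, which may be technical. In bulk RNA, fewer cells with a transcript and less of it per cell cannot be told apart. The comparison asks how the transcripts of receptors, initiator caspase and IAPs moved with squamocin, and whether they moved alike in both lines.

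Death receptors are membrane proteins whose cytoplasmic death domain recruits FADD when a ligand such as TRAIL or FAS ligand binds. FADD in turn recruits procaspase-8, which is activated by proximity and cleaves downstream caspases and BID. c-FLIP competes with caspase-8 in that complex, XIAP binds and inhibits active caspases, and cIAP1 and cIAP2 are ubiquitin ligases that act on RIPK1 and hold TNF receptor signalling on the side of NF-κB. TNFRSF10D binds TRAIL but carries a truncated death domain and acts as a decoy. Several of these genes are known targets of stress-induced or inflammatory transcription factors, TNFRSF10B of CHOP (DDIT3) and ATF4, and FAS and BIRC3 of NF-κB.

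BIRC3 and BIRC2 lie next to each other on chromosome 11, at chr11:102317450-102339403 and chr11:102347211-102378670 on the forward strand of GRCh38, with 7807 bases between them. CFLAR and CASP8 lie on the same strand of chromosome 2, on either side of CASP10, at chr2:201116104-201176687 and chr2:201233443-201287711, with 56755 bases between them. Promoter windows from RefSeq (GRCh38.p14, from 250 bases before to 50 after a start site) were found for 7 of the members, 17 windows in all, and the windows of the 3 TRAIL receptors were not analysed here. The windows of BIRC3 (chr11:102317234-102317533), BIRC2 (chr11:102346964-102347263) and CASP8 (chr2:201233213-201233512), all on the forward strand, are shown because BIRC3 and BIRC2 were the adjacent pair that moved apart in SCC25 and because CASP8 is the protease of the set. Capitals mark matches to the NF-κB consensus in BIRC3, the cAMP response element TGACGTCA in BIRC2 and the core of the interferon-stimulated response element, GAAA repeated after a gap of 2 bases, in CASP8, searched on both strands, and the matches do not overlap one another.
BIRC3: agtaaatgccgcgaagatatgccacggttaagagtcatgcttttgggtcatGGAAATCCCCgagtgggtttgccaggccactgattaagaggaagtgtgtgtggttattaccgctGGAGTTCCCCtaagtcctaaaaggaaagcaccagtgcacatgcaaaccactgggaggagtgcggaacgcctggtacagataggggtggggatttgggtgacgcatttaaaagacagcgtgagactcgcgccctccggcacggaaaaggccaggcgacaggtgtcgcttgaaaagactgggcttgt
BIRC2: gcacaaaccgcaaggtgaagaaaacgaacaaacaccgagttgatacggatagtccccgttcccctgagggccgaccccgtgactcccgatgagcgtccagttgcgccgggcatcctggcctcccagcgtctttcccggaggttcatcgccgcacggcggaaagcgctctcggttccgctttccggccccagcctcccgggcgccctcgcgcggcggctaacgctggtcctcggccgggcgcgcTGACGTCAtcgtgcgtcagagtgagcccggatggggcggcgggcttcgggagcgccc
CASP8: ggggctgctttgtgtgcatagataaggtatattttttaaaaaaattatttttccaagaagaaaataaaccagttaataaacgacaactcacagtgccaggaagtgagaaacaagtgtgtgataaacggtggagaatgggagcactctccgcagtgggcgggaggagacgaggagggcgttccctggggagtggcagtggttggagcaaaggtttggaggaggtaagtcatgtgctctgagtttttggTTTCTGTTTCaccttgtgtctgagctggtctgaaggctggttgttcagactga
The BIRC3 window held 2 matches to the NF-κB consensus, GGAAATCCCC and GGAGTTCCCC, which are the forward letters of matches on the reverse strand, with first bases at −199 and −135 from the start site. The consensus was also found in 1 of 4 CFLAR windows and 1 of 3 FAS windows, which made 3 of the 17 windows, and 5.90% of 34943 promoter windows of this length held it. TGACGTCA was found in both BIRC2 windows, which overlap, and in 1.84% of all windows. The GAAA repeat was found in 1 of 3 CASP8 windows and in 3.57% of all windows. These are matches of letters and not sites shown to be bound.

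Libraries held 16665563 to 22748845 reads on genes, and each member had at least 83 reads in every library. The values are normalized counts, that is, reads divided by 1 size factor per library, set separately in each cell line. The libraries of SCC15 cells with squamocin were the least alike, because replicate 3 differed from the other two by a chi-square per degree of freedom of 67.9 and 60.1, against 1.73 to 10.7 for all other pairs of replicates. Reads from the mitochondrial genome made up 1.69% to 1.73% of a library with DMSO and 0.796% to 0.959% with squamocin in SCC15, and 4.37% to 4.54% and 2.45% to 3.50% in SCC25. The part of these shifts in the results was not tested. Of 8 markers of squamous epithelium, 7 had a median of at least 10 TPM (a level scaled by transcript length and by the total of the library) in SCC25 and 4 in SCC15. KRT5 and TP63 had medians of 0.360 and 0.335 TPM in SCC15, where KRT17 stood at 12096 TPM. Among the markers of fibroblasts, immune cells and endothelium, CD14 reached that level in SCC15, and CD14 and COL1A1 did in SCC25. PTPRC stayed at or below 0.108 TPM in SCC15 and was not listed in SCC25.

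With squamocin, FAS and BIRC2 rose in both cell lines, and FADD, CASP8, TNFRSF10A and TNFRSF10D fell in both. TNFRSF10B rose in both with the authors' scaling but did not pass in SCC15 with equal library totals. In SCC15 cells 4 members were higher, 4 were lower and 2 did not pass the test (limma on log2 values with a pseudocount of 1, adjusted p under 0.05 over all genes tested). In SCC25 cells 4 were higher and 6 were lower. Without squamocin replicate 3, 4 members were higher and 5 lower in SCC15, XIAP being the addition. In that setting 6086 of all 16001 genes tested were higher and 6022 lower. With all libraries, 30.9% of the genes tested were higher and 30.0% lower in SCC15, and 38.3% were higher and 38.5% lower in SCC25. A member that passes is thus not unusual in these libraries. With equal library totals 2 members were higher and 6 lower in SCC15, beside 14.8% and 50.5% of all genes, and 3 were higher and 6 lower in SCC25, beside 30.4% and 47.4%. The median log2 fold change of the members was −0.0028 in SCC15, against 0.012 over all genes tested, and −0.37 in SCC25, against −0.015. FADD was the member with the largest change in both lines, and BIRC3 was the member that passed in both lines with opposite signs under the authors' scaling.

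**Figure D1:**
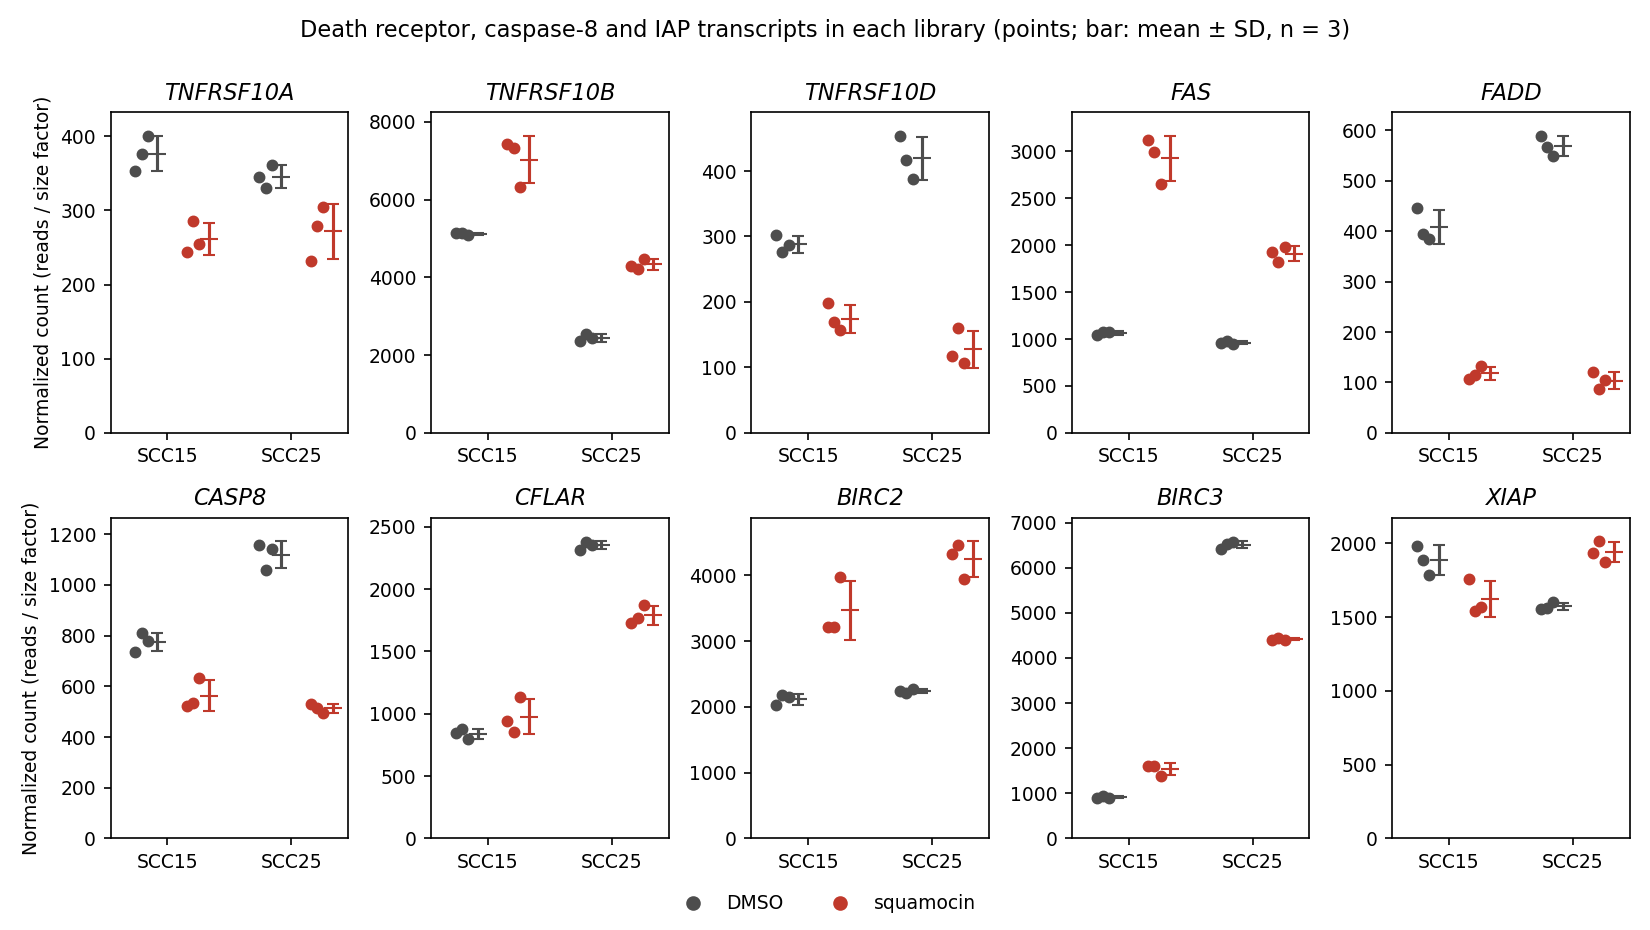
Normalized counts (vertical axis, reads divided by the size factor, starting at 0) of the 10 members in each library of SCC15 and SCC25 with DMSO (grey) and squamocin (red). Points are libraries and bars are mean ± SD (n = 3). The treatments overlap only for CFLAR in SCC15, and the share of all genes whose treatments do not overlap was not counted. Scales of the cell lines were set separately.

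The order of the members by level per transcript length differed between the lines with DMSO. In SCC15 cells with DMSO, TNFRSF10B was the most abundant member at 188 ± 0.13 TPM (SD, n = 3), ahead of BIRC2 at 82.6 ± 3.4 TPM. In SCC25 cells with DMSO, BIRC3 led at 104 ± 1.5 TPM, and TNFRSF10B (67.3 ± 2.8 TPM) and BIRC2 (65.7 ± 0.90 TPM) overlapped behind it. BIRC3 was thus 8th of the 10 in SCC15, at 19.4 ± 0.37 TPM, where its range overlapped that of TNFRSF10A. CASP8 stood at 42.8 ± 2.0 TPM in SCC15 and 46.4 ± 2.0 TPM in SCC25, and overlapped FAS in SCC15. CFLAR was the lowest member in SCC15, at 8.42 ± 0.37 TPM, and TNFRSF10D the lowest in SCC25, at 13.1 ± 1.0 TPM, where its range overlapped that of TNFRSF10A. TPM was computed here with the length of 1 transcript per gene, 14612 bases for CFLAR, so a library that used a shorter CFLAR transcript would have a higher level than given. TPM fixes the total of a library and is used here for the order within a group and for shares among the 3 TRAIL receptors of a library, in which the total cancels, and not for the fold changes of treatments.

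Among the receptors, DR5 gained on DR4 and on the decoy in both lines. TNFRSF10B, the TRAIL receptor with the highest level in both lines, had 5130, 5137 and 5087 normalized counts with DMSO and 7421, 7337 and 6321 with squamocin in SCC15. The SCC25 libraries had 2352, 2538 and 2434 with DMSO and 4299, 4211 and 4483 with squamocin. Every squamocin library lay above every DMSO library in both lines. The log2 fold change was 0.45 (SE 0.095) in SCC15 (limma, adjusted p = 0.0048) and 0.83 (SE 0.045) in SCC25 (limma, adjusted p = 3.68e-09). In SCC15 the sign rested on the scaling, since with equal library totals the log2 fold change was −0.044 (limma, adjusted p = 0.788).

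TNFRSF10A, the other TRAIL receptor with a full death domain, had 353, 376 and 401 normalized counts with DMSO and 245, 286 and 255 with squamocin in SCC15. In SCC25 the values were 345, 330 and 361 with DMSO and 231, 279 and 305 with squamocin. The treatments did not overlap, and the log2 fold changes were −0.52 (SE 0.11; limma, adjusted p = 0.0044) and −0.35 (SE 0.10; limma, adjusted p = 0.0078). Genes annotated on the opposite strand within TNFRSF10A, chiefly AC100861.1, held together 42.8% of its mean normalized count in SCC15 and 56.3% in SCC25. Since no source used here says whether counting used the strand, reads of these genes cannot be told apart from those of TNFRSF10A. For TNFRSF10B, FAS, CFLAR and XIAP, overlapping genes held 5.69% of the member's count or less.

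TNFRSF10D, the decoy, fell in both lines. It had 302, 276 and 287 normalized counts with DMSO and 198, 169 and 157 with squamocin in SCC15, and 454, 417 and 388 with DMSO and 117, 160 and 107 with squamocin in SCC25. The log2 fold changes were −0.73 (SE 0.12; limma, adjusted p = 0.0018) and −1.73 (SE 0.14; limma, adjusted p = 1.49e-07). The fall was larger in SCC25, by 1.00 on the log2 scale (SE 0.21; limma, adjusted p = 0.0013). TNFRSF10B therefore made up more of the transcripts of the 3 TRAIL receptors followed here. Of the TPM of the 3 receptors, its share went from 85.2% ± 0.49 with DMSO to 92.3% ± 0.38 with squamocin in SCC15, and from 71.2% ± 1.5 to 88.8% ± 1.2 in SCC25 (SD, n = 3).

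FAS, the receptor for FAS ligand, was the member that rose most. It had 1044, 1077 and 1076 normalized counts with DMSO and 3123, 2997 and 2656 with squamocin in SCC15. Its SCC25 values were 957, 980 and 946 with DMSO and 1927, 1822 and 1978 with squamocin. The lowest squamocin library was far above the highest DMSO library in each line. The log2 fold change was 1.45 (SE 0.089; limma, adjusted p = 2.73e-05) in SCC15, a fold of 2.74, and 0.99 (SE 0.050; limma, adjusted p = 2.05e-09) in SCC25, a fold of 1.98. In SCC15, 93.9% of all genes tested had a lower log2 fold change than FAS, and in SCC25 85.9%.

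FADD, the adaptor through which DR4, DR5 and FAS reach caspase-8, fell most. It had 447, 394 and 385 normalized counts with DMSO and 108, 114 and 132 with squamocin in SCC15, and 589, 568 and 549 with DMSO and 121, 86.3 and 104 with squamocin in SCC25. These are folds of 0.290 and 0.182, or log2 fold changes of −1.79 (SE 0.12; limma, adjusted p = 4.38e-05) and −2.45 (SE 0.12; limma, adjusted p = 1.15e-09). In SCC15, 5.16% of the genes tested had a lower log2 fold change than FADD, and in SCC25 3.17%.

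CASP8, the initiator caspase, had 736, 810 and 780 normalized counts with DMSO and 523, 533 and 633 with squamocin in SCC15. SCC25 cells had 1156, 1061 and 1143 with DMSO and 531, 516 and 495 with squamocin. The treatments were apart in both lines, with log2 fold changes of −0.46 (SE 0.10; limma, adjusted p = 0.0065) and −1.12 (SE 0.061; limma, adjusted p = 3.49e-09). The fall was larger in SCC25 by 0.66 on the log2 scale (SE 0.12; limma, adjusted p = 5.59e-04).

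CFLAR, which encodes the inhibitor of caspase-8 activation, had 846, 875 and 794 normalized counts with DMSO and 939, 857 and 1136 with squamocin in SCC15, where the treatments overlapped. In SCC25 it had 2318, 2382 and 2352 with DMSO and 1726, 1771 and 1872 with squamocin, which did not overlap. The log2 fold change was 0.21 in SCC15 (95% confidence interval −0.066 to 0.49; limma, adjusted p = 0.157) and −0.39 in SCC25 (SE 0.046; limma, adjusted p = 5.60e-06). When library totals were made equal, the value in SCC15 was −0.29 (limma, adjusted p = 0.0246), so no direction is given for CFLAR in that line.

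**Figure D2:**
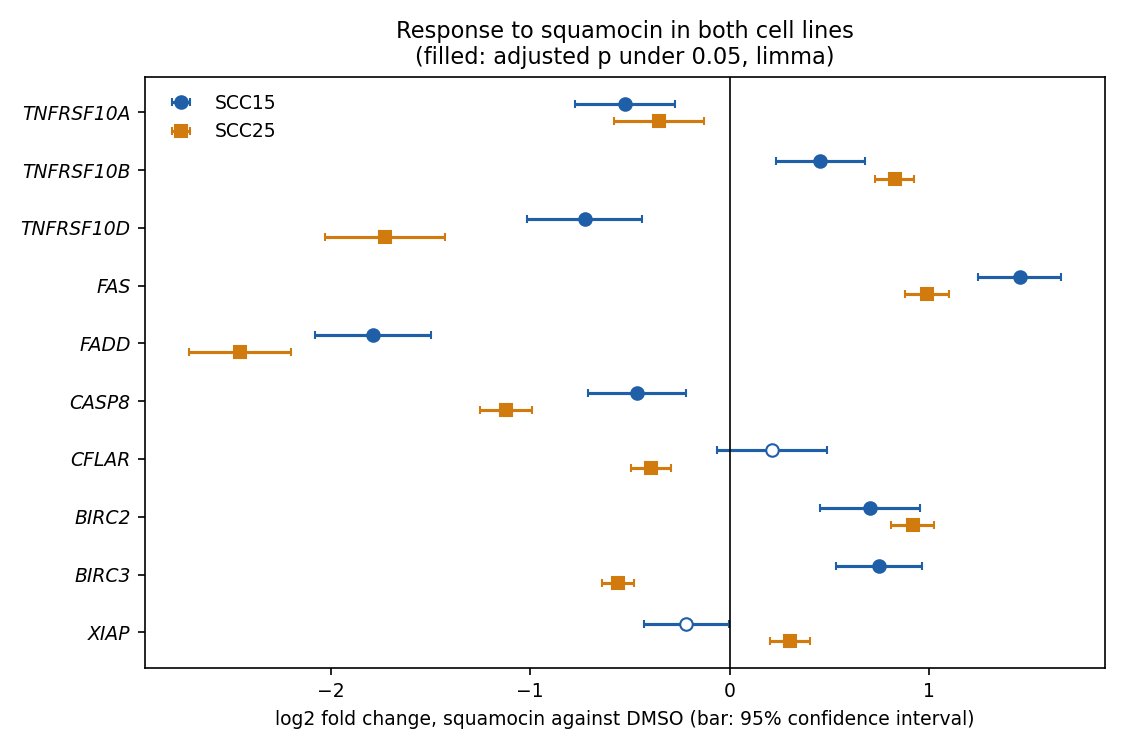
Log2 fold change of each member with squamocin against DMSO (horizontal axis) in SCC15 (circles) and SCC25 (squares), with 95% confidence intervals from limma; filled symbols passed an adjusted p of 0.05. FAS lies furthest to the right in both lines, FADD furthest to the left, and BIRC3 lies at 0.75 in SCC15 and −0.56 in SCC25.

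The IAPs did not move as a group. BIRC2 had 2023, 2181 and 2153 normalized counts with DMSO and 3209, 3216 and 3980 with squamocin in SCC15, and 2249, 2208 and 2274 with DMSO and 4325, 4466 and 3940 with squamocin in SCC25. It was higher in every squamocin library, by 0.70 (SE 0.11; limma, adjusted p = 0.0012) and 0.92 (SE 0.050; limma, adjusted p = 3.75e-09) on the log2 scale. The responses of the lines differed by −0.21 (95% confidence interval −0.48 to 0.052; limma, adjusted p = 0.162). Without squamocin replicate 3 of SCC15 that difference was −0.32 (limma, adjusted p = 7.29e-04).

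BIRC3, encoded beside BIRC2, had 905, 934 and 894 normalized counts with DMSO and 1616, 1612 and 1381 with squamocin in SCC15. The values in SCC25 were 6425, 6519 and 6576 with DMSO and 4399, 4440 and 4399 with squamocin. All squamocin libraries were thus above the DMSO libraries in SCC15 and below them in SCC25. The log2 fold changes were 0.75 (SE 0.092; limma, adjusted p = 4.45e-04) and −0.56 (SE 0.036; limma, adjusted p = 1.90e-08), and the difference between the lines was 1.31 (SE 0.097; limma, adjusted p = 4.27e-07). When library totals were made equal, BIRC3 was at 0.25 in SCC15 and did not pass (limma, adjusted p = 0.148).

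XIAP, which binds caspases directly, had 1984, 1886 and 1785 normalized counts with DMSO and 1760, 1538 and 1571 with squamocin in SCC15. In SCC25 it had 1558, 1561 and 1600 with DMSO and 1936, 2012 and 1874 with squamocin. Its log2 fold change in SCC15 was −0.22 (95% confidence interval −0.43 to −0.0056; limma, adjusted p = 0.0706), although the libraries did not overlap, and it was 0.30 (SE 0.047; limma, adjusted p = 6.49e-05) in SCC25. The SCC15 value passed with edgeR (−0.28, adjusted p = 0.0366) and DESeq2 (−0.24, adjusted p = 0.0467) on the recovered reads, without squamocin replicate 1 (−0.28; limma, adjusted p = 0.0406) and without squamocin replicate 3 (−0.20; limma, adjusted p = 0.0055), and with equal library totals (−0.71; limma, adjusted p = 0.0016). When library totals were made equal, XIAP was at 0.094 in SCC25 (limma, adjusted p = 0.0728), so the rise in that line did not hold under each scaling.

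The response to squamocin differed between the cell lines for 8 of the 10 members, against 52.2% of the 14454 genes tested in both. As SCC15 minus SCC25, the log2 fold change of TNFRSF10B differed by −0.37 (SE 0.10; limma, adjusted p = 0.0083). For FAS it was larger in SCC15 by 0.46 (SE 0.10; limma, adjusted p = 0.0017). FADD fell less in SCC15, with a difference of 0.67 (SE 0.18; limma, adjusted p = 0.0079). CFLAR differed by 0.61 (SE 0.13; limma, adjusted p = 0.0017) and XIAP by −0.52 (SE 0.10; limma, adjusted p = 7.75e-04). TNFRSF10A differed by −0.17 (95% confidence interval −0.51 to 0.17; limma, adjusted p = 0.385), which leaves a difference of either sign possible. The differences of FAS and FADD did not pass with equal library totals (0.17 and 0.38; limma, adjusted p = 0.346 and 0.0739), while those of TNFRSF10A and BIRC2 then did (−0.46 and −0.50; limma, adjusted p = 0.0435 and 3.52e-04).

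The scaling of the libraries bears on all of these values. When libraries were scaled to the same total instead, the median log2 fold change of all genes moved to −0.48 in SCC15 and −0.22 in SCC25, and the share of higher genes among those called went from 50.8% to 22.7% in SCC15 and from 49.9% to 39.1% in SCC25. The order of the members among all genes hardly moved. That holds by construction apart from the pseudocount, since a scaling shifts every gene of a library alike, so the order does not check the calls. TNFRSF10B, for example, lay above 69.5% of the genes tested in SCC15 with the authors' scaling and above 69.3% with equal totals. FADD, CASP8, TNFRSF10A and TNFRSF10D fell and FAS and BIRC2 were higher under each scaling in both lines. With TMM scaling, all 30 fold changes and differences of the members kept their side of the threshold.

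Ratios of 2 members within a library do not depend on its scaling. The ratio of TNFRSF10B to TNFRSF10A was 14.5, 13.6 and 12.7 with DMSO and 30.2, 25.6 and 24.7 with squamocin in SCC15. In SCC25 it was 6.80, 7.67 and 6.72 with DMSO and 18.5, 15.1 and 14.6 with squamocin. The treatments did not overlap, and the ratio was 1.97 times as high with squamocin in SCC15 and 2.27 times as high in SCC25. Each exact permutation test, two-sided, gave p = 0.1, the smallest that 3 against 3 libraries allow, and 8 such ratios were compared, so none could pass a threshold of 0.05. The ratio of TNFRSF10B to the decoy TNFRSF10D rose from 17.7 ± 0.81 to 40.2 ± 3.0 in SCC15 and from 5.84 ± 0.58 to 34.8 ± 7.9 in SCC25 (SD, n = 3; exact permutation p = 0.1 each).

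CASP8 fell against CFLAR in both lines. The ratio was 0.870, 0.925 and 0.981 with DMSO and 0.557, 0.623 and 0.558 with squamocin in SCC15, and 0.499, 0.445 and 0.486 with DMSO and 0.308, 0.292 and 0.265 with squamocin in SCC25. The log2 ratio changed by −0.68 and −0.73 (exact permutation p = 0.1 each), with no overlap of the treatments. The ratio of BIRC3 to BIRC2 behaved differently. In SCC15 it was 0.448, 0.428 and 0.416 with DMSO and 0.504, 0.501 and 0.347 with squamocin, which overlapped (exact permutation p = 1). In SCC25 it was 2.86, 2.95 and 2.89 with DMSO and 1.02, 0.994 and 1.12 with squamocin, a fold of 0.359 (exact permutation p = 0.1).

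The rest of the pathway was read from a list of 66 genes in 8 groups. In SCC15 58 of them were tested, of which 30 were higher, 15 lower and 13 did not pass, and in SCC25 57 were tested, of which 30 were higher, 19 lower and 8 did not pass (limma, adjusted p under 0.05). Over all genes tested, 30.9% were higher and 30.0% lower in SCC15, and 38.3% and 38.5% in SCC25. With equal library totals 15 of the list were higher and 25 lower in SCC15, beside 14.8% higher and 50.5% lower over all genes. The median log2 fold change of the list was 0.45 in SCC15 and 0.30 in SCC25. Of 56 genes tested in both lines, 21 were higher in both, 7 were lower in both and 9 passed in both with opposite signs, beside 22.1%, 18.6% and 10.1% of the 14454 genes tested in both.

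Among 3 ligands tested, 2 were higher and 1 lower in each line. TNFSF10, which encodes TRAIL, the ligand of the DR4 and DR5 receptors, fell furthest of the whole list. It had 4596, 5122 and 4972 normalized counts with DMSO and 747, 787 and 1027 with squamocin in SCC15, and 3857, 3925 and 3646 with DMSO and 219, 238 and 197 with squamocin in SCC25. The log2 fold changes were −2.53 (SE 0.13; limma, adjusted p = 1.50e-05) and −4.13 (SE 0.071; limma, adjusted p = 1.53e-13). TNF, the ligand of TNFRSF1A, moved the other way. In SCC25 it had 960, 1074 and 1025 normalized counts with DMSO and 8152, 8162 and 8684 with squamocin, a log2 fold change of 3.03 (limma, adjusted p = 1.22e-13). In SCC15 only 5 reads of TNF were found over the 3 DMSO libraries and 138 over the 3 squamocin libraries, a ratio of 38.9 (exact 95% interval 16.3 to 122, counting error only).

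Of the other receptors, 8 were tested in SCC15 (5 higher, 1 lower) and 7 in SCC25 (3 higher, 3 lower). TNFRSF12A, the receptor for TWEAK, rose by 1.19 and 0.80 on the log2 scale (limma, adjusted p = 4.45e-04 and 1.84e-09). TNFRSF11B, osteoprotegerin, a soluble decoy that also binds TRAIL, fell by 1.81 in SCC15 (limma, adjusted p = 1.01e-04) and in SCC25 held 12.4 ± 4.1 normalized counts with DMSO and 6.27 ± 3.7 with squamocin, below the filter. TNFRSF25 (DR3) rose by 1.22 in SCC25 (limma, adjusted p = 2.04e-08), and its value in SCC15 was −0.17 (limma, adjusted p = 0.480), or −0.66 with equal library totals (limma, adjusted p = 0.0351). TNFRSF1A, the main TNF receptor, fell by 0.34 in SCC25 (limma, adjusted p = 1.98e-05), with 0.13 in SCC15 (limma, adjusted p = 0.351), or −0.37 with equal library totals (limma, adjusted p = 0.0042).

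Of 11 adaptors and receptor kinases, 8 were higher and 1 lower in SCC15, and 6 were higher and 3 lower in SCC25. RIPK1, the kinase on which cIAP1 and cIAP2 place ubiquitin, had 540, 527 and 569 normalized counts with DMSO and 283, 284 and 292 with squamocin in SCC15, and 665, 644 and 648 with DMSO and 144, 186 and 133 with squamocin in SCC25. It was below its DMSO libraries throughout, with log2 fold changes of −0.93 and −2.09 (limma, adjusted p = 1.43e-04 and 3.44e-09). TRADD, which links TNFRSF1A to RIPK1, fell by 0.64 in SCC25 (limma, adjusted p = 1.40e-06). In SCC15 TRADD was at −0.046 (limma, adjusted p = 0.865), and at −0.30 without squamocin replicate 3 (limma, adjusted p = 6.74e-04). TRAF1, a partner of the cIAPs, rose by 0.65 in SCC15, with the authors' scaling, and by 2.02 in SCC25 (limma, adjusted p = 0.0110 and 2.19e-10). TRAF6, a ubiquitin ligase of NF-κB signalling, rose from 1405 ± 40.0 to 3986 ± 228 normalized counts in SCC25 (SD, n = 3; limma, adjusted p = 5.26e-11), and CRADD rose by 1.19 on the log2 scale (limma, adjusted p = 1.39e-05). In SCC15 their log2 fold changes were 0.54 and 0.79 (limma, adjusted p = 0.0231 and 0.0170). With equal library totals TRAF1 (0.15), TRAF6 (0.044) and CRADD (0.30) did not pass in SCC15 (limma, adjusted p = 0.567, 0.870 and 0.172), while TRADD did (−0.54; limma, adjusted p = 0.0191). There TRAF6 did not pass when any library other than squamocin replicate 3 was left out (0.44 to 0.59; limma, adjusted p = 0.0512 to 0.0810), and CRADD did not pass without DMSO replicate 1 or 2 (0.80 and 0.73; limma, adjusted p = 0.0522 and 0.0630).

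Of 10 genes that edit ubiquitin on the receptor complexes, 6 were higher and 3 lower in SCC15, and 7 were higher and 2 lower in SCC25. TNFAIP3 (A20), a ubiquitin-editing brake on NF-κB, went from 3223 ± 55.6 to 6436 ± 528 normalized counts in SCC15 and from 6423 ± 133 to 20843 ± 518 in SCC25 (SD, n = 3). The log2 fold changes were 0.99 and 1.70 (limma, adjusted p = 1.32e-04 and 1.17e-12). RBCK1 (HOIL-1), a subunit of the linear ubiquitin ligase, rose by 1.82 and 1.70 (limma, adjusted p = 1.99e-05 and 6.23e-11), while RNF31 (HOIP), the catalytic subunit of the same ligase, fell by 1.04 in SCC25 (limma, adjusted p = 6.20e-07) and was at −0.19 in SCC15 (limma, adjusted p = 0.497). SHARPIN, a further subunit of that ligase, was at 0.68 in SCC15 and −0.62 in SCC25 with the authors' scaling (limma, adjusted p = 0.0083 and 1.31e-06). TNIP1, which binds A20, rose by 1.04 and 0.79 (limma, adjusted p = 9.48e-05 and 5.45e-09). CYLD, a deubiquitinase of RIPK1, rose by 1.35 in SCC25 (limma, adjusted p = 5.69e-11). In SCC15 CYLD was at 0.48 (limma, adjusted p = 0.0022) and at −0.022 with equal library totals (limma, adjusted p = 0.875).

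Of 9 other caspases and their partners, 2 were higher and 6 lower in SCC15, and 4 were higher and 4 lower in SCC25. CASP10, the initiator caspase closest to caspase-8, fell in both lines, with log2 fold changes of −0.95 and −1.34 (limma, adjusted p = 0.0016 and 1.33e-08), as did CASP6, with −1.17 and −0.82 (limma, adjusted p = 4.67e-04 and 3.14e-05). BID, the substrate that carries the signal of caspase-8 to mitochondria, was at 0.74 and −0.13 (limma, adjusted p = 0.0145 and 0.0432), a difference of 0.87 (SE 0.22; limma, adjusted p = 0.0049). In SCC25 BID did not pass when any library other than squamocin replicate 2 was left out (−0.14 to −0.087; limma, adjusted p = 0.0693 to 0.149), nor in SCC15 without DMSO replicate 1 or 2 (0.71 and 0.70; limma, adjusted p = 0.0529 and 0.0549) or with equal library totals (0.24; limma, adjusted p = 0.193).

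Of 2 further IAPs tested, 1 was lower in SCC15 and 1 higher in SCC25. BIRC5 (survivin) rose from 1301 ± 37.9 to 4847 ± 954 normalized counts in SCC25 (SD, n = 3), a log2 fold change of 1.88 (limma, adjusted p = 7.15e-09), and was at 0.20 in SCC15 (limma, adjusted p = 0.295), or −0.30 with equal library totals (limma, adjusted p = 0.0365). Among antagonists of the IAPs, HTRA2 and XAF1 fell in SCC25, with log2 fold changes of −1.48 and −1.58 (limma, adjusted p = 4.10e-07 and 3.49e-08). In SCC15 HTRA2 was at −0.75 (limma, adjusted p = 0.0333) and did not pass when any library other than squamocin replicate 3 was left out (−0.77 to −0.48; limma, adjusted p = 0.0594 to 0.0977), and XAF1 was at −0.48 (limma, adjusted p = 0.252). DIABLO (Smac) was at 0.79 in SCC15 (limma, adjusted p = 0.0203), did not pass without squamocin replicate 1 or 2 or DMSO replicate 1 or 3 (0.63 to 0.81; limma, adjusted p = 0.0533 to 0.0743) or with equal library totals (0.29; limma, adjusted p = 0.389), and was not analysed in SCC25.

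Of the transcription factors known to act on members, 12 were tested in SCC15 (6 higher, 1 lower) and 13 in SCC25 (7 higher, 4 lower). DDIT3, which encodes CHOP, had 193, 167 and 168 normalized counts with DMSO and 2877, 2820 and 5142 with squamocin in SCC15, and 593, 621 and 600 with DMSO and 3748, 3759 and 3732 with squamocin in SCC25. The log2 fold changes were 4.30 and 2.63 (limma, adjusted p = 1.62e-05 and 1.66e-13). ATF4, the factor upstream of CHOP, rose by 2.25 and 0.91 (limma, adjusted p = 3.21e-05 and 5.39e-10), and IRF1, a factor of the interferon response, by 2.32 and 2.86 (limma, adjusted p = 5.49e-06 and 1.39e-14). The NF-κB subunits RELB and NFKB2 rose in both lines, by 1.85 and 1.02 (limma, adjusted p = 9.74e-05 and 4.34e-09) and by 1.46 and 0.96 (limma, adjusted p = 1.97e-05 and 1.92e-09). RELA rose by 1.14 in SCC15 (limma, adjusted p = 1.12e-04) and was at 0.12 in SCC25 (limma, adjusted p = 0.117), where it passed without squamocin replicate 1 (0.17; limma, adjusted p = 0.0343). NFKB1 rose by 0.33 in SCC25 (limma, adjusted p = 5.77e-05). In SCC15 NFKB1 was at 0.10 (limma, adjusted p = 0.300), passed without squamocin replicate 3 (0.14; limma, adjusted p = 0.0206) and had the other sign with equal library totals (−0.40; limma, adjusted p = 0.0194). TP73 fell by 3.28 in SCC25 (limma, adjusted p = 1.38e-10) and was below the filter in SCC15.

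**Figure D3:**
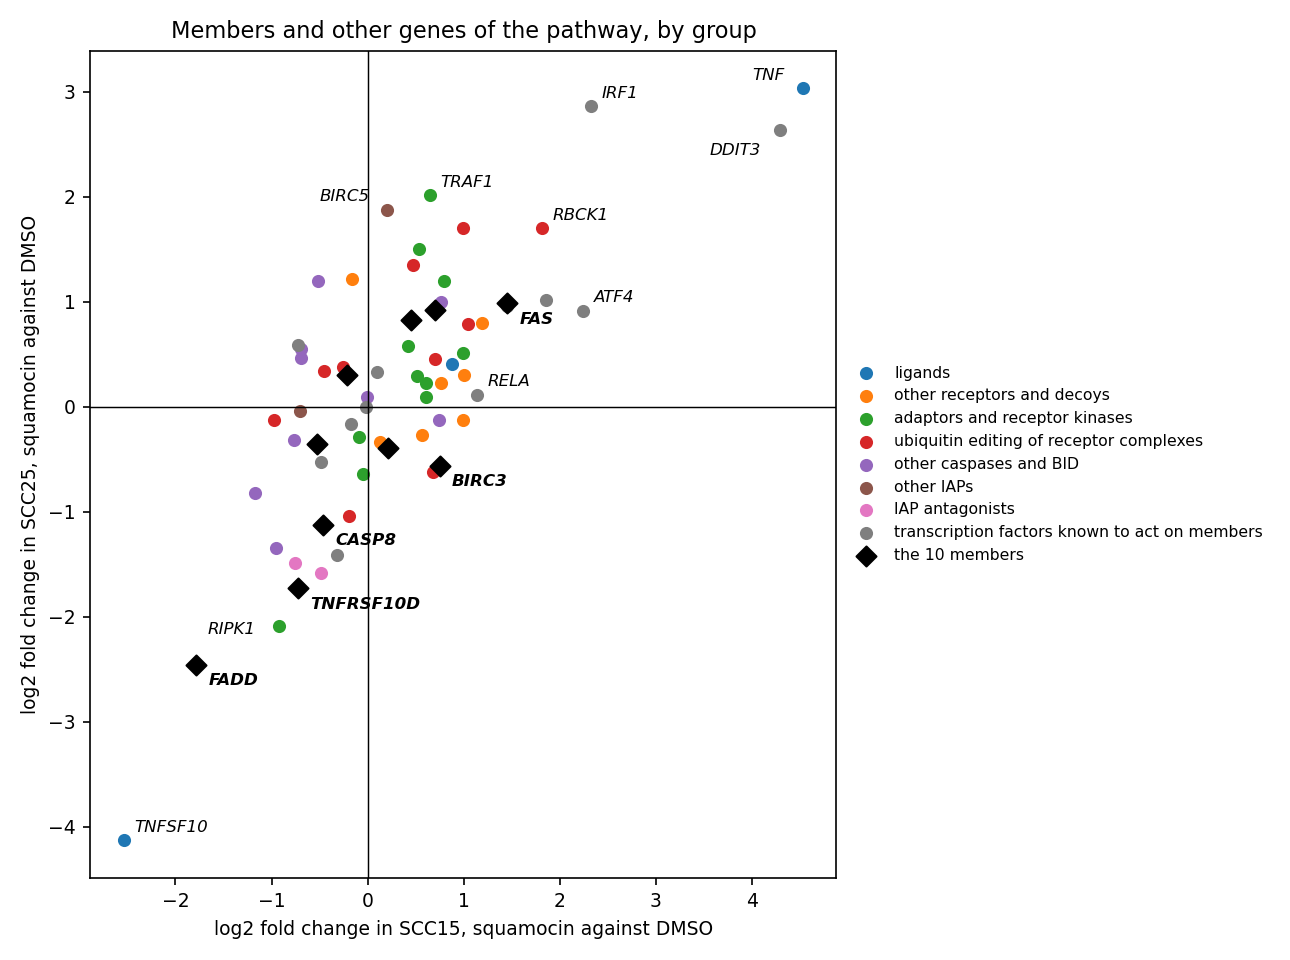
Log2 fold change with squamocin against DMSO in SCC15 (horizontal axis) and SCC25 (vertical axis) for 56 other genes of the pathway tested in both lines (circles, coloured by group) and for the 10 members (black diamonds). TNFSF10 lies alone at the lower left (−2.53, −4.13) and FADD is the member nearest to it.

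The genes whose pattern was most like that of a member were sought among 9698 protein-coding genes with a mean of at least 100 normalized counts in both lines, by Pearson's r over the 12 libraries, each centred on the DMSO mean of its line. These r values are descriptions, since libraries of a treatment share it, and 90 to 367 genes had an r above 0.95 with a given member. DCAF8 (r = 0.996) was among the nearest to TNFRSF10B. TTC14 (r = 0.998) and GPCPD1 (r = 0.997) were nearest to FAS. NAGLU (r = 0.986) and YBEY (r = 0.985) were nearest to CFLAR. ECE1 (r = 0.993) and NELFCD (r = 0.992) were nearest to BIRC3, the member that passed in both lines with opposite signs under the authors' scaling.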

How the data were processed

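RNA-seq of SCC15 and SCC25 cells (24 h, squamocin or DMSO, 3 libraries each) was re-analysed. The authors aligned reads to GRCh38 with HISAT2 2.0.5, counted them with featureCounts 1.5.0-p3 per the labels' processing notes, and divided them by 1 size factor per library within each line; the strand setting is not given in the sources used here. The deposited signal is therefore a normalized count, although columns of the SCC25 table are named FPKM. Multiplied by the recovered size factors, 100% of values came out whole (tolerance 0.05). The authors' own group means, fold changes and p-values, also deposited, were not used.

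Genes with a mean of at least 10 were tested on log2(value + 1) with limma 3.58.1 (eBayes with trend, two-sided, Benjamini-Hochberg over all genes tested) in R 4.3.3. The fold changes are on that scale. The line difference was a contrast of the 4 group means. Ratios were compared by exact permutation. TPM used the Ensembl canonical transcript of GENCODE release 44. Alternatives were pseudocounts 0.1 and 10, filters, TMM, equal totals, edgeR 4.0.16, DESeq2 1.42.0, the replicate block, each library left out, and an absolute log2 fold change above 1. Scripts were tested on simulated data. The members and gene lists were chosen with earlier results of these data known. Pathway genes were named if past the threshold with an absolute log2 fold change of at least 1 in either line, along with fixed genes whatever their values (TNFSF10, TNFRSF1A, CASP10, BID, DIABLO, RIPK1, TRADD, TNFAIP3, CYLD, DDIT3, ATF4, RELA and NFKB1 among them); FASLG and TNFRSF6B were not analysed here. Some single genes are not reported here, although counts over the list include them.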

Additional observations from a re-analysis of the deposited data

Results flagged for a closer look

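The response to squamocin differed between SCC15 and SCC25 by a test of the difference itself (limma, adjusted p under 0.05 over 14454 genes) for 8 members. As SCC15 minus SCC25 on the log2 scale, the differences were 1.31 for BIRC3, 1.00 for TNFRSF10D, 0.67 for FADD, 0.66 for CASP8, 0.61 for CFLAR, 0.46 for FAS, −0.37 for TNFRSF10B and −0.52 for XIAP. Of the genes tested in both lines 52.2% met the same criterion. Among the other named genes of the pathway, BID and SHARPIN passed in both lines with opposite signs under the authors' scaling, with differences of 0.87 and 1.29. In SCC25 BID did not pass when any library other than squamocin replicate 2 was left out. In SCC15 it did not pass with equal library totals (0.24; limma, adjusted p = 0.193). The differences of FAS and FADD did not pass with equal library totals.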

How the results depend on the processing

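Of 510 values of the members recomputed under an alternative, 496 kept their side of the threshold and, where either fit passed, their direction. Equal library totals changed 9 of the 14 others, and gave TNFRSF10B (−0.044) and CFLAR (−0.29) the other sign in SCC15. TNFRSF10B did not pass there (limma, adjusted p = 0.788), and CFLAR had not passed with the authors' scaling (limma, adjusted p = 0.157). Among the other pathway genes 995 of 1037 values were kept by the same rule. A value that passed in neither fit counted as kept whatever its sign, as for RNF31 in SCC15 (−0.34 to 0.099 with 1 library left out). Equal totals gave the other sign to TNFRSF1A (−0.37), CYLD (−0.022), BIRC5 (−0.30) and NFKB1 (−0.40) in SCC15. Of these CYLD did not pass with equal totals (limma, adjusted p = 0.875), and the others had not passed with the authors' scaling. The cause was not tested. With equal totals 2 members were higher in SCC15, and 15 other pathway genes were higher and 25 lower there. With an absolute log2 fold change above 1, counts of members higher and lower were 1 and 1 in SCC15 and 0 and 3 in SCC25. Those of the other pathway genes were 10 and 3 in SCC15 and 13 and 8 in SCC25, and 1 member differed between the lines. Fewer genes can pass by construction, and the share of all genes past this cutoff was not counted. Leaving out 1 library gave −0.045 to 0.22 for the log2 BIRC3 to BIRC2 ratio change in SCC15 (0.046 with all libraries).

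Deviations of libraries with the same replicate number correlated at −0.051 to 0.0078, and those of libraries with different numbers at −0.040 to 0.049. Whether libraries with the same number shared a culture or a preparation was not tested. With the replicate number as a block, 4 members were higher and 4 lower in SCC15, 4 were higher and 6 lower in SCC25, and 8 differed. Over all genes tested with the block, 4665 of 15902 were higher and 4451 lower in SCC15. In SCC25 6294 of 16539 were higher and 6317 lower. The difference between the lines passed with a positive sign for 3564 of 14454 genes and with a negative sign for 3525. The ratio changes are the same with and without the block by construction, so the block does not check them. BID in SCC25 did not pass with the block (−0.13; limma, adjusted p = 0.0554). Reads carry no molecular identifiers, so counting intervals cover counting error only.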
